A study of Mus musculus with 15 samples.

Results

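The 10 genes described here make up the corticosteroid and corticotropin-releasing hormone system as it can be read in the hippocampus: Nr3c1, Nr3c2, Fkbp4, Hsd11b1, Hsd11b2, Crh, Ucn, Crhbp, Crhr1 and Crhr2. They were chosen by gene symbol, and each was read by the brightest probe set that the platform annotation gives that symbol alone. All 10 were found among the 19938 genes measured, each with 1 such probe set and with 0 probe sets shared with another gene. The samples were right hippocampi of male C57BL/6 pups taken on postnatal day 9, and 3 pups formed each of the 5 groups. Untreated controls (CC) had no treatment. The other groups had mild stress with saline vehicle (MSS), mild stress with morphine (MSM), severe stress with saline vehicle (SSS) or severe stress with morphine (SSM), given between postnatal days 5 and 9. All of the treated groups combine a stress with an injected liquid, so none had stress or morphine alone. The sources used here do not give the make-up of each stress, the morphine dose or the litter of each pup (litters held at most 7), and p-values therefore measure the spread between these arrays only.

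Corticosterone, the main glucocorticoid of mice, acts in the hippocampus through a pair of nuclear receptors. The mineralocorticoid receptor, coded by Nr3c2, binds it tightly and is abundant in hippocampal pyramidal and granule neurons, and the glucocorticoid receptor, coded by Nr3c1, binds it less tightly and is filled when the hormone is high. Both wait in the cytoplasm on heat shock protein scaffolds that include the immunophilin Fkbp4, and enzymes inside the cell remake the hormone (Hsd11b1) or inactivate it (Hsd11b2). The brain's own stress peptides, Crh and Ucn, act on the membrane receptors Crhr1 and Crhr2, and the secreted binding protein Crhbp traps them. In the first weeks of life mice pass through a period in which the adrenal response to stress is low.

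Promoter sequences were available for 7 of the 10 genes, from RefSeq on the build GRCm38.p6. Those of Nr3c2 and Crhbp are shown because these genes were low together in a single array, and that of Fkbp4 because it had the smallest p-value of the 10 genes. Each line gives the 250 bases before the transcription start in the direction of the gene. Capitals mark the GC box GGGCGG or its reverse complement CCGCCC.
Nr3c2, chr8:76902080-76902329, plus strand: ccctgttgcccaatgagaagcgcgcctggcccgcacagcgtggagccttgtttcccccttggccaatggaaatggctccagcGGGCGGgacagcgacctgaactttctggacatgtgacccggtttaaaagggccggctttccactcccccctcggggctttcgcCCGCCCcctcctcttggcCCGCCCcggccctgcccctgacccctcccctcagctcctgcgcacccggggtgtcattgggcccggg
Crhbp, chr13:95444832-95445081, minus strand: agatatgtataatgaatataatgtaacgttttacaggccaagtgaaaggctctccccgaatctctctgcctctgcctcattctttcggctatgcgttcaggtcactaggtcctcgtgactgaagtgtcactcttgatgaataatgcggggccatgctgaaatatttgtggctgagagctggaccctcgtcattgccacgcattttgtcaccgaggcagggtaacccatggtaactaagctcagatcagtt
Fkbp4, chr6:128438657-128438906, minus strand: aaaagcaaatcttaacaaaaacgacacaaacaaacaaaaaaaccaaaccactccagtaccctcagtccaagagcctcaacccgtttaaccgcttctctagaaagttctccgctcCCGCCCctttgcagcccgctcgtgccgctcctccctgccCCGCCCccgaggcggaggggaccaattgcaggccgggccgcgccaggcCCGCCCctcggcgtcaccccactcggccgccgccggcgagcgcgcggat
Nr3c2 and Fkbp4 each held 3 GC boxes in this window and were rich in G and C (68.4% and 63.2%), whereas Crhbp held 0 and had 47.2%. The box stood in 32.7% of the 32851 promoters of the table on either strand. The half-site AGAACA of the steroid receptors (or TGTTCT on the other strand, in 16.1% of all promoters) was found in the window of Ucn and in none of the other 6. The cAMP response element TGACGTCA, which reads the same on both strands (1.55% of promoters), was likewise found in Ucn only, and the E-box CACGTG (6.02%) in none of the 7. These are matches of letters and say nothing of binding.

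No gene of the system passed the test in any comparison. Values below are log2 intensities, group values are means ± SD (n = 3), and each difference between groups is on the log2 scale with its standard error (SE) from limma, fitted across all 19938 genes with Benjamini-Hochberg adjustment and a threshold of 0.05. The fit compared each treated group and their mean with CC, morphine with saline at each stress level and averaged, severe with mild stress under each liquid and averaged, and the interaction of both. With an F-test over the 5 groups, 0 of the 10 genes passed anywhere. The background was as low. In the averaged severity comparison 2 of all genes passed (0.0100%), and in the other 11 comparisons and the F-test 0 did (0%). At an unadjusted p under 0.05, 1 member stood out in SSM against CC (Crhr2), 1 in SSM against MSM and 1 in the averaged severity comparison (Fkbp4 in both). Over all genes that share was 9.01%, 14.3% and 12.1%. In limma's F-test across all genes 1 member was below that level (Fkbp4, adjusted p = 0.685), against 7.24% of all genes. In the remaining comparisons 0 of 10 were, against 2.22% of all genes in MSS against CC, 2.76% in MSM against CC, 2.03% in SSS against CC and 1.86% for the mean of the treated groups. The share was 2.57% for MSM against MSS, 9.37% for SSM against SSS, 2.85% for SSS against MSS, 7.64% for averaged morphine and 3.65% for the interaction. The members' counts lay close to these shares.

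**Figure D1:**
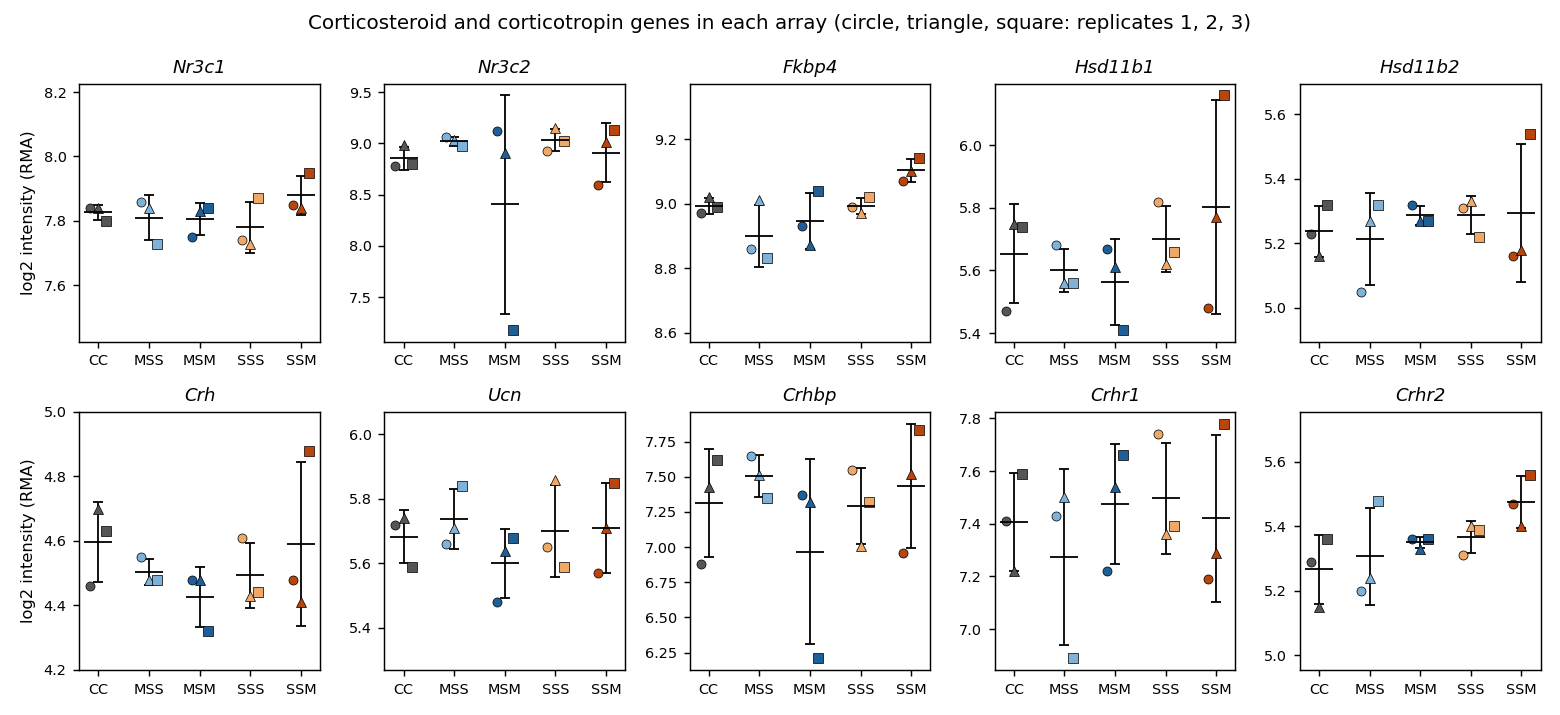
Log2 intensity of the 10 genes in each of the 15 arrays, by group (n = 3), with the group mean and SD as bars. Nr3c2 and Crhbp are lowest in MSM replicate 3 (7.18 and 6.21), and 8 of the 10 genes are highest in SSM replicate 3.

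Some arrays stood apart from their group, and their values touch several of these genes. In MSM replicate 3 the mean of 6 thalamus markers was 8.27, against 6.54 to 7.18 in the other 14 arrays, and the mean of 6 hippocampal principal neuron markers was 7.71, against 8.14 to 8.85. SSM replicate 1 had the lowest principal neuron mean of the others (8.14) and the highest mean of 4 striatum markers (10.31, with 6.87 to 8.92 in the other arrays). The markers of a list did not all move together. Of the 6 thalamus markers 5 were highest and 1 was lowest in MSM replicate 3. Of the 6 principal neuron markers 4 were lowest in MSM replicate 3, while 2 were lowest and 1 was highest in SSM replicate 1. In SSM replicate 3 the median deviation of the 19938 genes from their own medians was 0.15, against -0.01 to 0.00 in the other arrays. A number after SS in the sample titles, whose meaning is not stated, is the same for all CC arrays, another for all mild stress arrays, and others again for the severe stress arrays. Whatever it stands for and the groups therefore cannot be told apart in any comparison with CC or of severe with mild stress. The 3 arrays MSS replicates 1 and 2 and SSS replicate 2 had low choroid plexus markers (mean of 7 markers 5.78 to 5.86, against 7.05 to 8.05 elsewhere). Of the 6 principal neuron genes, Prox1 ranged from 7.81 to 9.10 over the 15 arrays, Neurod6 from 7.36 to 9.62 and Zbtb20 from 8.36 to 9.75. Ranges of the others are not given here, and no level for detection was set. In samples of whole tissue, fewer cells of a type and less RNA per cell cannot be told apart.

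Nr3c1, the glucocorticoid receptor gene, had the smallest spread of the 10 genes. It was 7.84, 7.84 and 7.80 in CC, 7.86, 7.84 and 7.73 in MSS, and 7.75, 7.83 and 7.84 in MSM. In SSS it was 7.74, 7.73 and 7.87, and in SSM 7.85, 7.84 and 7.95. Every treated group overlapped with CC, the SSM arrays lay just above the MSM arrays, and the whole range over 15 arrays was 0.23. Group means were 7.83 ± 0.025 (CC), 7.81 ± 0.070 (MSS), 7.81 ± 0.048 (MSM), 7.78 ± 0.075 (SSS) and 7.88 ± 0.063 (SSM). MSS and MSM each differed from CC by -0.02, SSS by -0.04 and SSM by 0.06 (SE 0.059 each). The 95% intervals of these differences lay between -0.17 (SSS) and 0.18 (SSM). Averaged over the stress levels morphine differed from saline by 0.05 (95% interval -0.04 to 0.14). Severe differed from mild stress by 0.02 (-0.06 to 0.11). SSM differed from MSM by 0.08 (SE 0.059, limma adjusted p = 0.548).

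Nr3c2, the mineralocorticoid receptor gene, varied more than any other member, and nearly all of that spread came from a single array. It was 8.78, 8.98 and 8.80 in CC, 9.06, 9.03 and 8.97 in MSS, and 8.93, 9.15 and 9.02 in SSS. In MSM it was 9.12, 8.91 and 7.18, and in SSM 8.59, 9.01 and 9.13. The low values are MSM replicate 3 and, less so, SSM replicate 1, the same arrays whose mean of principal neuron markers was lowest. The MSM replicate 3 value differed from the median of the other 14 arrays by -1.82, which was rank 6 from the lowest of the 19938 genes in that array. Group means were 8.85 ± 0.11 (CC), 9.02 ± 0.047 (MSS), 8.40 ± 1.1 (MSM), 9.03 ± 0.11 (SSS) and 8.91 ± 0.28 (SSM). MSM differed from CC by -0.45 (SE 0.34, 95% interval -1.18 to 0.28) and from MSS by -0.62 (SE 0.34, adjusted p = 1). The other differences from CC were 0.17 in MSS, 0.18 in SSS and 0.06 in SSM (SE 0.34 each).

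Without SSM replicate 1 and MSM replicate 3, the sign of the MSM difference turned. The 10 remaining treated arrays then ranged from 8.91 to 9.15 (median 9.02), all above the CC mean, and 7 of them lay above all 3 CC arrays. CC replicate 1 was kept, though its Nr3c2 (8.78) and principal neuron mean (8.55) were the lowest in CC. Its striatum mean (8.92) was the highest in CC. The difference from CC was then 0.17 for MSS, 0.16 for MSM, 0.18 for SSS and 0.22 for SSM. On all 15 arrays the mean of the treated groups differed from CC by -0.01 (SE 0.27), and without MSM replicate 3 alone by 0.14 (SE 0.091, unadjusted p = 0.141). Without CC replicate 1 alone it was -0.05 (SE 0.33), with MSS at 0.13 and SSS at 0.14. On the 13 arrays the mean of the treated groups differed from CC by 0.18 (SE 0.064, unadjusted p = 0.0127). That did not pass over all genes (limma, adjusted p = 0.989). The arrays left out, with these values known, held the lowest Nr3c2 of all treated arrays (8.59 and 7.18). Leaving them out could only raise the difference, so the p without them cannot measure chance. Principal neuron markers lay the same way on the 13 arrays. Their mean was 8.55 to 8.71 in the CC arrays and 8.66 to 8.85 in the 10 treated arrays. The arrays left out had the lowest means of all (8.14 and 7.71), so leaving them out could only raise the treated values. The part of these markers in the Nr3c2 difference was not tested.

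**Figure D2:**
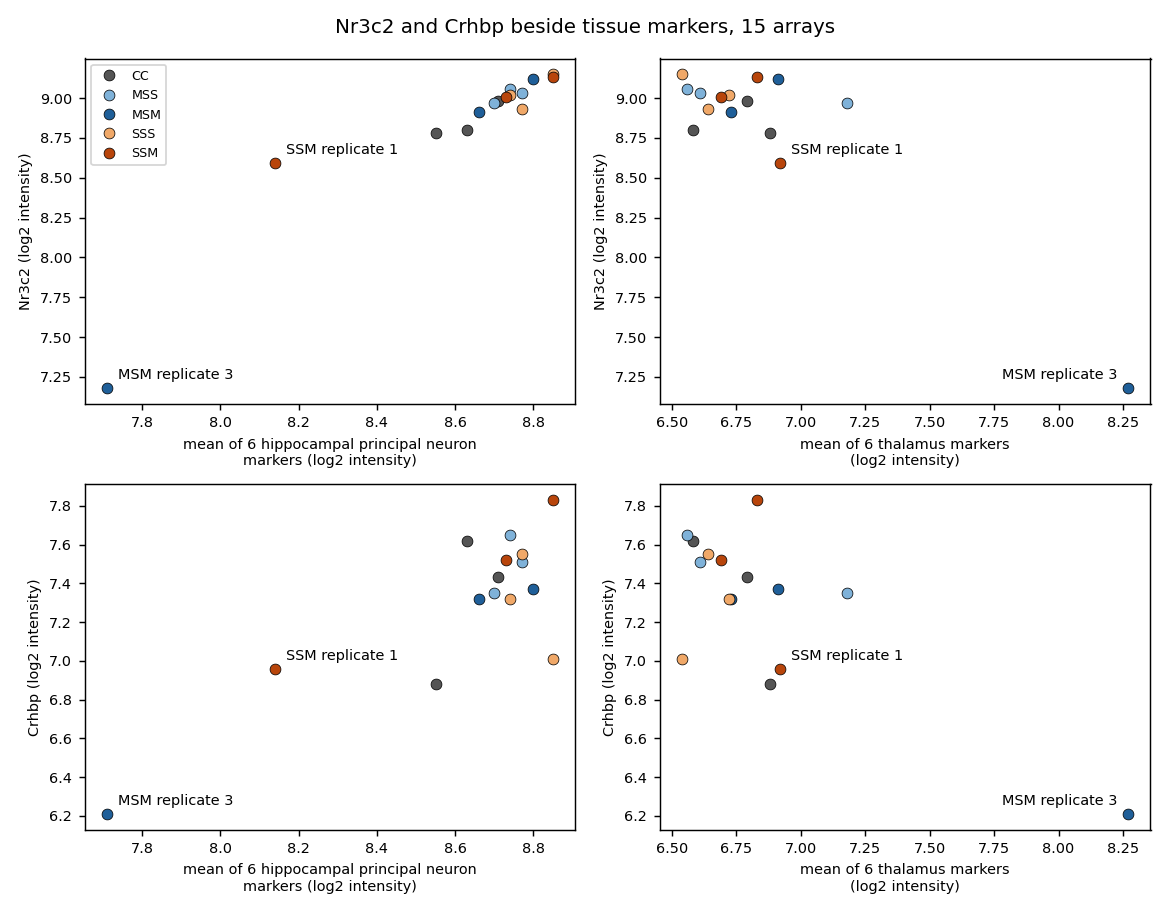
Nr3c2 (top) and Crhbp (bottom) in the 15 arrays, as log2 intensity, against the mean of 6 hippocampal principal neuron markers (left) and of 6 thalamus markers (right), with a point per array coloured by group. MSM replicate 3 lies alone at 7.71 on the principal neuron axis and 8.27 on the thalamus axis, with the lowest value of both genes.

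The balance of the receptors was read as Nr3c2 minus Nr3c1 within each array, a difference in which a shift shared by both genes of an array cancels. It compares change and not amount, since each gene has its own probes. It was 0.94, 1.14 and 1.00 in CC, 1.20, 1.19 and 1.24 in MSS, and 1.18, 1.41 and 1.15 in SSS. All 6 saline-treated arrays thus lay above all 3 CC arrays. In MSM it was 1.37, 1.08 and -0.66 and in SSM 0.74, 1.17 and 1.17, which overlapped with CC. The difference from CC was 0.19 in MSS and 0.22 in SSS, each with p = 0.1 in a two-sided exact permutation test. That is the smallest p that 3 against 3 arrays can give (adjusted p = 0.55 over 11 comparisons). MSM differed by -0.43 (exact permutation p = 0.9) and SSM by 0.0022 (p = 1). With the arrays of all treated groups together the difference was -0.0045 (exact permutation p = 0.987). Without SSM replicate 1 and MSM replicate 3 it was 0.19, with an exact permutation p of 0.021 over 286 arrangements (adjusted p = 0.231), and 0.20 for MSM and 0.15 for SSM. These arrays held the lowest values of all treated arrays (0.74 and -0.66) and were left out with their values known. CC replicate 1, the lowest CC array (0.94), was kept. Leaving out the lowest treated arrays could only raise the difference from CC, so the p without them cannot measure chance. Morphine differed from saline within stress levels by -0.42 (exact permutation p = 0.19), which was -0.03 (p = 0.69) without these arrays. Severe differed from mild stress within each liquid by 0.24 (exact permutation p = 0.69), which was -0.0070 (p = 0.95) without them.

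**Figure D3:**
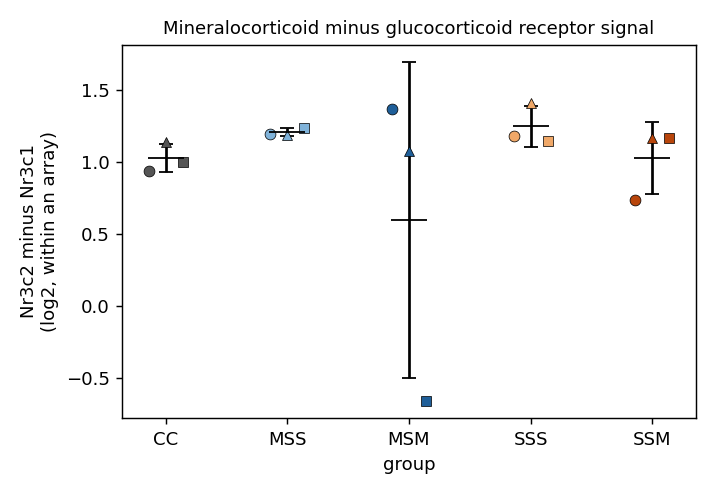
Nr3c2 minus Nr3c1 (log2, within an array) in each array by group, with the group mean and SD as bars (n = 3). The 6 MSS and SSS arrays lie between 1.15 and 1.41, above the 3 CC arrays (0.94 to 1.14), and MSM replicate 3 lies at -0.66.

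Fkbp4, the immunophilin that helps carry ligand-bound receptors toward the nucleus, had the smallest p-values of the members. It was 8.97, 9.02 and 8.99 in CC, 8.86, 9.01 and 8.83 in MSS, and 8.93, 8.87 and 9.04 in MSM. Under severe stress it was 8.99, 8.97 and 9.02 with saline and 9.07, 9.10 and 9.14 with morphine. The SSM arrays lay above those of all the other groups, and the SSS arrays overlapped with those of CC. Means were 9.00 ± 0.024 (CC), 8.90 ± 0.095 (MSS), 8.94 ± 0.085 (MSM), 8.99 ± 0.025 (SSS) and 9.10 ± 0.034 (SSM). Severe differed from mild stress by 0.13 (SE 0.043, 95% interval 0.03 to 0.22, unadjusted p = 0.0103), which did not pass over all genes (limma, adjusted p = 0.273). The part under morphine was 0.16 (SE 0.060, adjusted p = 0.276) and that under saline 0.09 (SE 0.060, adjusted p = 1). Over all genes the median of the severity difference was 0.035. After quantile normalization the Fkbp4 severity difference was 0.07 (unadjusted p = 0.0843), and the SSM against MSM difference 0.08 (unadjusted p = 0.162). Against CC, SSM differed by 0.11 (SE 0.060, adjusted p = 0.599).

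The 11-beta-hydroxysteroid dehydrogenases set how much active hormone reaches the receptors. Hsd11b1, which regenerates corticosterone, was 5.47, 5.75 and 5.74 in CC, 5.68, 5.56 and 5.56 in MSS, and 5.67, 5.61 and 5.41 in MSM. It was 5.82, 5.62 and 5.66 in SSS and 5.48, 5.77 and 6.16 in SSM. The extremes of the whole series were MSM replicate 3 and SSM replicate 3, and the groups overlapped. Severe differed from mild stress by 0.17 (SE 0.095, 95% interval -0.03 to 0.37, limma adjusted p = 0.499). Without SSM replicate 1 and MSM replicate 3 this was 0.21 (SE 0.078, adjusted p = 0.280), and SSM then differed from CC by 0.31 (SE 0.11, adjusted p = 0.271). These values rested on SSM replicate 3. Without it alone the severity difference was 0.08 (SE 0.074) and SSM differed from CC by -0.03 (SE 0.11), against 0.15 (SE 0.13) on all arrays. Hsd11b2, which inactivates corticosterone, was 5.23, 5.16 and 5.32 in CC, 5.05, 5.27 and 5.32 in MSS, and 5.32, 5.27 and 5.27 in MSM. It was 5.31, 5.33 and 5.22 in SSS and 5.16, 5.18 and 5.54 in SSM. Its group means lay between 5.22 ± 0.14 (MSS) and 5.29 ± 0.21 (SSM), and no difference from CC exceeded 0.06 (SE 0.095). Over all arrays the means of Hsd11b1 (5.66) and Hsd11b2 (5.26) lay at percentiles 42.6 and 37.2 of the genes, and their detection was not tested.

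Crh, the corticotropin-releasing hormone made in the hippocampus by scattered interneurons, was dim on the array. Its mean of 4.52 lay below the level of 4.61 under which 25% of the genes fell, and a small signal limits how far a change could be seen. It was 4.46, 4.70 and 4.63 in CC, 4.55, 4.48 and 4.48 in MSS, and 4.48, 4.48 and 4.32 in MSM. In SSS it was 4.61, 4.43 and 4.44, and in SSM 4.48, 4.41 and 4.88. MSM replicate 3 was the lowest array and SSM replicate 3 the highest. Differences from CC were -0.09 in MSS, -0.17 in MSM and -0.10 in SSS (SE 0.10 each, limma adjusted p = 1). Without CC replicate 1, the lowest CC array, they were -0.16, -0.23 and -0.17 (SE 0.11 each). Without SSM replicate 3 the MSM difference had an SE of 0.071 (unadjusted p = 0.0381, adjusted p = 0.975). Without MSM replicate 3, the lowest array, the MSM difference from CC was -0.11 (SE 0.11, limma unadjusted p = 0.349). Ucn, which codes for urocortin, a peptide that binds both receptors, was 5.72, 5.74 and 5.59 in CC, 5.66, 5.71 and 5.84 in MSS, and 5.48, 5.64 and 5.68 in MSM. It was 5.65, 5.86 and 5.59 in SSS and 5.57, 5.71 and 5.85 in SSM. All Ucn groups overlapped, and the largest difference between groups was -0.14 (SE 0.089) for MSM against MSS (adjusted p = 1). The Ucn mean over all arrays (5.69) lay at percentile 42.9 of the genes, and its detection was not tested.

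Crhbp, the gene of the binding protein that traps both peptides, followed Nr3c2 in MSM replicate 3. It was 6.88, 7.43 and 7.62 in CC, 7.65, 7.51 and 7.35 in MSS, and 7.37, 7.32 and 6.21 in MSM. It was 7.55, 7.01 and 7.32 in SSS and 6.96, 7.52 and 7.83 in SSM. The lowest array differed from the median of the other 14 by -1.18, rank 55 from the lowest of the 19938 genes there. The next lowest were CC replicate 1 and SSM replicate 1, which had the highest striatum means (8.92 and 10.31), and their part in these values was not tested. MSM differed from CC by -0.34 (SE 0.28, adjusted p = 1) and from MSS by -0.53 (SE 0.28, 95% interval -1.14 to 0.08, adjusted p = 1). Without SSM replicate 1 and MSM replicate 3 the MSM difference from CC was 0.04 (SE 0.19) and that from MSS -0.15 (SE 0.19). SSM differed from CC by 0.12 (SE 0.28) on all arrays and by 0.36 (SE 0.19, adjusted p = 0.350) on these 13. It was -0.07 without SSM replicate 3 alone and -0.09 without CC replicate 1 alone, so the sign was not stable.

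Crhr1, the main corticotropin-releasing hormone receptor of forebrain neurons, was 7.41, 7.22 and 7.59 in CC, 7.43, 7.50 and 6.89 in MSS, and 7.22, 7.54 and 7.66 in MSM. It was 7.74, 7.36 and 7.39 in SSS and 7.19, 7.29 and 7.78 in SSM. Each group spread widely and overlapped with the others. Means lay between 7.27 ± 0.33 in MSS, through the low MSS replicate 3, and 7.50 ± 0.21 in SSS. The 95% intervals against CC reached from -0.52 in MSS to 0.48 in SSS, wider than for Nr3c1. Unlike Nr3c2 and Crhbp, it was not low in MSM replicate 3, where it lay 0.25 above the median of the other arrays.

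Crhr2, the other corticotropin-releasing hormone receptor, which prefers the urocortins, was 5.29, 5.15 and 5.36 in CC and 5.47, 5.40 and 5.56 in SSM. All 3 SSM arrays lay above all 3 CC arrays. It was 5.20, 5.24 and 5.48 in MSS, 5.36, 5.33 and 5.36 in MSM, and 5.31, 5.40 and 5.39 in SSS. MSS and SSS overlapped with both CC and SSM, and MSM lay below SSM. SSM differed from CC by 0.21 (SE 0.077, 95% interval 0.04 to 0.37, unadjusted p = 0.0168), which did not pass over all genes (limma, adjusted p = 0.542). The median of all genes in that comparison was 0.062. The mean of Crhr2 over the 15 arrays (5.35) lay at percentile 38.5 of the genes, and its detection was not tested. The difference was 0.16 after quantile normalization and 0.17 without SSM replicate 3 (unadjusted p = 0.027 and 0.0652). Without CC replicate 2, the lowest array, it was 0.15 (unadjusted p = 0.0921). In the 3 arrays with low choroid plexus markers Crhr2 was 5.20 to 5.40, within its range of 5.15 to 5.56 in the other 12.

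**Figure D4:**
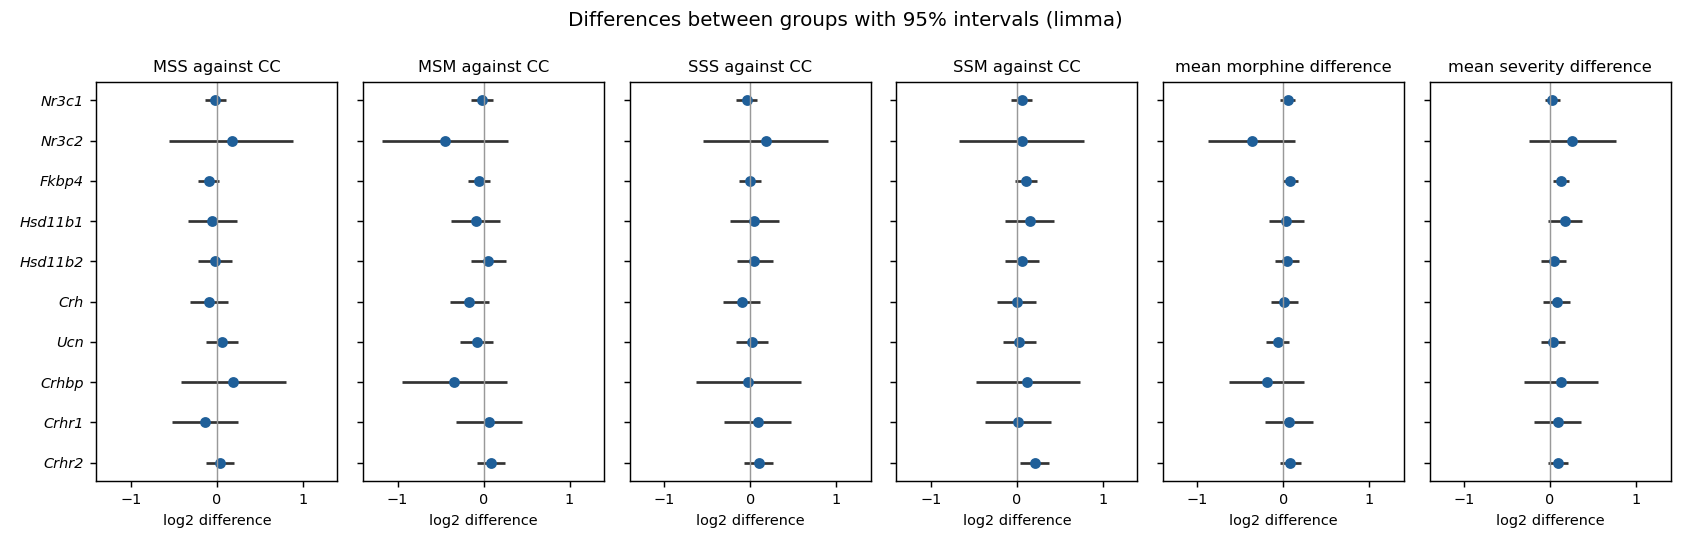
Log2 differences of the 10 genes with 95% intervals (limma) for the treated groups against CC, morphine against saline and severe against mild stress. Intervals are widest for Nr3c2 and Crhbp and narrowest for Nr3c1 and Fkbp4, and of those drawn only Crhr2 in SSM against CC (0.04 to 0.37) and Fkbp4 in the averaged severity comparison (0.03 to 0.22) leave out 0.

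Seen across the members, most severity differences lay above 0. Of the 10 genes, 10 had a severity difference above 0 (median 0.089), as did 70.3% of all genes (median 0.035). Without SSM replicate 3 it was 8 of 10 (median 0.018), against 54.8% of all genes (median 0.0076). After quantile normalization 9 of 10 lay above 0 (median 0.063), against 52.6% of all genes (median 0.0043), and after median centring 9 of 10 (median 0.064), against 56.1% (median 0.0099). In SSM against CC 9 of 10 lay above 0 (median 0.058), against 76.9% of all genes (median 0.062). SSM replicate 3 was the highest array for 8 of the 10 genes, and the share of all genes highest there was not counted. All 10 genes lay above their own medians there, by a median of 0.23, against a median deviation of 0.15 over all genes. Crh and Hsd11b1 varied together over the 15 arrays (r = 0.84), and less so without SSM replicate 3 (r = 0.64). Crhbp and Hsd11b1 had r = 0.76, and 0.79 without that array. Nr3c2 and Crhbp had r = 0.81, which was 0.22 without SSM replicate 1 and MSM replicate 3. The arrays share their scaling and their tissue make-up, and these correlations are given as a description.

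**Figure D5:**
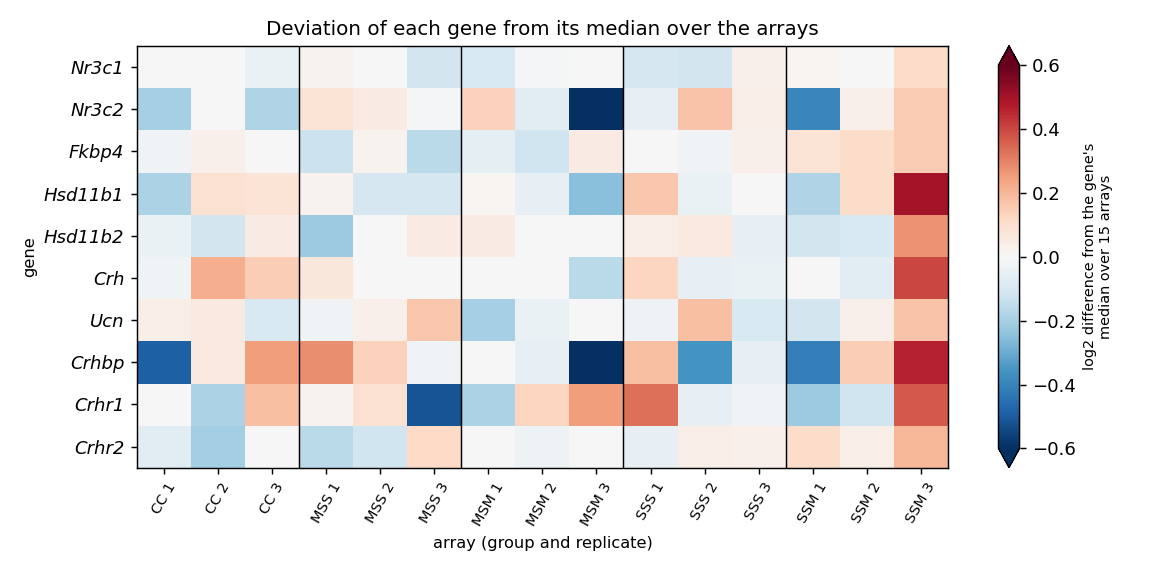
Log2 difference of each gene from its own median over the 15 arrays, with arrays in columns and colours capped at 0.6 in either direction. The column of SSM replicate 3 is red for all 10 genes, and the darkest blue cells are Nr3c2 and Crhbp in MSM replicate 3.

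Genes that assist or read the system were taken from 5 lists. None of their genes passed over all genes in any of the 12 comparisons (limma, 0 in each list). The nearest movement was among the chaperones that hold the receptors ready for hormone. Of 13 measured, 13 had a severity difference above 0 (median 0.085), against 70.3% of all genes. Of these, 6 had an unadjusted p under 0.05, all higher under severe stress, as did 9.28% of all genes. The 3 with the smallest p were the heat shock protein 40 gene Dnajb1 0.15 (SE 0.051, adjusted p = 0.276), the nucleotide exchange factor Bag1 0.14 (SE 0.051, adjusted p = 0.313) and the kinase co-chaperone Cdc37 0.12 (SE 0.049, adjusted p = 0.356). Under saline 12 of the 13 lay above 0 (median 0.061), against 54.4% of all genes, and under morphine 13 (median 0.11), against 73.6%. After quantile normalization 10 of 13 lay above 0 in the averaged comparison (median 0.026), against 52.6% of all genes. At an unadjusted p under 0.05, 1 of the 13 was then higher, as were 981 of all 19938 genes. Without SSM replicate 3, 12 of 13 lay above 0 (median 0.064), against 54.8% of all genes. At that level 2 of the 13 were then higher, as were 1194 of all genes.

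Corticosteroid supply and metabolism had 10 of 12 genes above 0 in the severity comparison (median 0.058) and 3 at an unadjusted p under 0.05, where 70.3% and 12.1% of all genes were. They were Abcb1b, which codes for a transporter that pumps steroids out of cells, at 0.14 (SE 0.053, adjusted p = 0.309), the steroid reductase gene Akr1c14 at 0.14 and the outer mitochondrial membrane gene Tspo at 0.11. After quantile normalization 7 of 12 lay above 0, against 52.6% of all genes. Corticotropin family and signalling genes lay above 0 in 10 of 13 (median 0.062). Grk3, a kinase that desensitises G protein-coupled receptors, was at -0.16 (SE 0.059, adjusted p = 0.303), and Pomc, the precursor of corticotropin, at 0.13 (adjusted p = 0.394). Corticosteroid response genes were split, with 8 of 15 above 0 (median 0.0065), and after quantile normalization 7 (median -0.018). Mt1, a metallothionein, was at 0.15, the clock gene Per1 at 0.12 and the sulfotransferase gene Sult1a1 at -0.15 (adjusted p = 0.332, 0.357 and 0.339). Steroid receptor coregulators had 6 of 12 above 0 (median -0.0048), with 0 at an unadjusted p under 0.05, and 1 of 12 above 0 after quantile normalization (median -0.049).

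Set against CC, the lists held no gene past the adjusted threshold either. In MSS 2 of 13 chaperones lay above 0 (median -0.055), in MSM 4 (median -0.036), in SSS 7 (median 0.0037) and in SSM 13 (median 0.071). Of 15 response genes 8 lay above 0 for MSS, 9 for MSM, 9 for SSS and 12 for SSM (median 0.018, 0.0026, 0.041 and 0.079). In SSM against CC 9.01% of all genes had an unadjusted p under 0.05 (limma), and the lists were not counted there without SSM replicate 3. Of the supply and metabolism genes 12 of 12 lay above 0 there (median 0.11, 3 at an unadjusted p under 0.05), led by Abcb1b at 0.23 (SE 0.075, limma adjusted p = 0.541). Of the corticotropin family 9 of 13 did (median 0.047), and of the coregulators 3 of 12 (median -0.029). Over all genes the share above 0 was 48.6% for MSS, 49.3% for MSM, 52.7% for SSS and 76.9% for SSM (median 0.062 for the last). With morphine averaged over the stress levels 11 of 15 response genes lay above 0 (median 0.033), against 67.3% of all genes (median 0.027). The kinase gene Sgk1, a target of both receptors, was at 0.15 there (SE 0.056, limma adjusted p = 0.649).

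The genes most like each member over the 15 arrays were picked by Pearson correlation. For Nr3c2 they were the lipoprotein lipase gene Lpl, the glutamate receptor auxiliary subunit gene Cacng8 and the transcriptional repressor gene Bcl6 (r = 0.99 each). Over the 13 arrays without SSM replicate 1 and MSM replicate 3 these were 0.86, 0.77 and 0.82. For Crhbp they were Mlip, Akr1c18 and Clcn4 (r = 0.93 each, and 0.80, 0.80 and 0.84 over 13 arrays). Hsd11b1 lay closest to the ketone body enzyme gene Bdh1 (r = 0.97, and 0.97 over 13 arrays), to Lancl2 (r = 0.95) and to Lypd6 (r = 0.93). Fkbp4 was most like Ddx20, Naa20 and Hacd3 (r = 0.91, 0.89 and 0.89), and Nr3c1 most like Zfp758, Dtymk and Akr1e1 (r = 0.89, 0.88 and 0.87). Crh was nearest to Wfdc6b, Pias1 and Msh4 (r = 0.90, 0.90 and 0.89) and Ucn to Khdc3, Mov10l1 and Pfn3 (r = 0.87, 0.86 and 0.86). Hsd11b2 went with Ap3s1, Rsph6a and Trim63 (r = 0.91, 0.90 and 0.89), Crhr1 with Tmem74b, Bcl6b and Dctd (r = 0.84, 0.82 and 0.80), and Crhr2 with Prrt3, Nat8f1 and Ins2 (r = 0.90, 0.87 and 0.87). With 19938 genes to choose from over 15 arrays, the highest correlations are large for any gene.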

How the data were processed

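Total RNA of the right hippocampus of each pup was hybridised to 1 single-colour Affymetrix array (Mouse Gene 1.0 ST). The authors deposited log2 intensities, and the submitters' processing notes name RMA, a method that corrects background, normalizes quantiles and summarises probes. No software version is stated in them. The number of arrays limits the precision (median SE of a difference between groups 0.081). Of 35557 probe sets 21789 carried a single symbol, and the brightest per gene gave 19938 genes. Array medians were 5.41 to 5.51 and, for SSM replicate 3, 5.60. The model was limma 3.58.1 (R 4.3.3), fitting 1 mean for every group with eBayes over the 15 arrays, and 10 residual and 4.61 prior degrees of freedom, two-sided. Permutation tests, correlations and promoter searches ran in Python 3.11.15. The fit was tested on simulated data. Named were all members, in a comparison up to 3 genes of a list with the smallest p, and the 3 genes most like each member (predicted genes and small RNAs passed over). Of 72 list entries 65 were measured (Fkbp5 stands in 2 lists). Members, lists and left-out arrays were chosen with earlier results of these data known. MSM and CC share the numbers after H in their titles, and some arrays of the other groups carry them too. Deviations from the group means correlated at -0.39 to -0.07 in the 3 MSM and CC pairs and at -0.30 to 0.43 in the other same-numbered pairs, so the number was not taken to pair arrays.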

Additional observations from a re-analysis of the deposited data

How the results depend on the processing

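The count of members past the adjusted threshold was 0 in the 12 comparisons and the F-test under all alternatives run. Counts at an unadjusted p under 0.05 moved. They went from 0 to 1 after quantile normalization for MSM against CC, with array weights for the mean of the treated groups and MSM against MSS, and with only the groups compared for MSS against CC. They went from 1 to 0 after quantile normalization for SSM against MSM, severity and the F-test, after median centring for SSM against MSM and the F-test, with only the groups compared for SSM against MSM, and with a random block for the number after SS in the titles for the F-test. On 13 arrays (without SSM replicate 1 and MSM replicate 3) they were 1 for SSS against CC, the mean of the treated groups and SSM against SSS, 3 for SSM against CC and SSM against MSM, and 2 for severity and the F-test. On 12 arrays (without MSS replicates 1 and 2 and SSS replicate 2) they were 1 for MSS against CC, the mean of the treated groups, MSM against MSS, SSS against MSS and the interaction, and 0 for the F-test. That fit leaves MSS with 1 array, which is assumed to vary like the other groups. Leaving out each replicate in turn gave 0 to 1, except 0 to 2 for SSM against CC and MSM against MSS, 0 to 3 for SSM against MSM, 1 to 2 for severity and 0 for SSS against CC. On the 13 arrays 2528 of all 19938 genes were higher and 301 lower at an unadjusted p under 0.05 in SSM against MSM. For severity 2268 were higher and 482 lower. The share of all genes is not given for the other counts in this paragraph, so they are not read as a result on the members. The cause of these moves was not tested.

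Nr3c2 minus Nr3c1 turned in sign on 13 arrays for MSM against CC (0.20), all treated arrays against CC (0.19), MSM against MSS (0.01), SSM against MSM (-0.05) and severity (-0.0070), and on 12 arrays for SSS against MSS (-0.07). Leaving out each replicate gave -0.82 to 0.20 for MSM against CC, -0.05 to 0.15 for all treated arrays, -1.0 to 0.01 for MSM against MSS, -0.20 to 0.82 for SSM against MSM and -0.08 to 0.43 for severity. It gave -0.04 to 0.09 for SSS against MSS and -0.07 to 0.15 for SSM against CC. With the H number as a replicate block, 0 members were called, with Crhr2 in SSM against CC at 0.21 (limma adjusted p = 0.583) and Fkbp4 in severity at 0.13 (adjusted p = 0.306). The count of all genes called for severity was 2 as deposited, 39 after quantile normalization, 17 after median centring and 5 without SSM replicate 3. Correlations without SSM replicate 3 and list counts under other settings were chosen after seeing the data. Of the comparisons between groups, MSM against MSS lies within 1 SS number, those with CC and of severity are confounded with it, and SSM and SSS share 1 such number with 1 array each, too few for a value.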

Other observations

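Pmch, the gene of a hypothalamic peptide, was looked at after its values were seen. It was 6.86 in CC replicate 1 and 6.62 in MSM replicate 3, against 4.30 to 4.73 in the other 13 arrays. Crh, which the hypothalamus also makes, was 4.46 and 4.32 in these arrays, not above its values elsewhere. Pomc, by contrast, was highest in SSS replicate 2 (4.86), and SSS differed from MSS by 0.23 (SE 0.081, limma unadjusted p = 0.012, adjusted p = 1).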
